A study of Mus musculus with 12 samples.

Results

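The genes described here are 10 X-linked genes of the blood and immune lineages, Foxp3, Gata1, Was, Btk, Sh2d1a, Il2rg, Cxcr3, Cd40lg, Cfp and Cybb. They were taken by name from a table of 952 X-linked genes, and all 10 had a value in each of 8 chromatin immunoprecipitation (ChIP-seq) libraries, as did 698 genes of the table in all. The libraries measure H3K9me3 and H3K27me3, 2 histone marks of silenced chromatin. The cells are female, either epiblast stem cells (EpiSCs, from embryos at E6.5) or mouse embryonic fibroblasts (MEFs, from E13.5). Cells were Smchd1+/+ (WT) or Smchd1 MD1/MD1 (MD1), and the MD1 cells lack SmcHD1, a chromosomal protein that takes part in keeping the inactive X silent. Both genotypes were also Xist deltaA/+, carrying on 1 X an Xist allele without the A-repeat, so that the X with the intact Xist is the inactive one. The cells come from a cross of C57BL6/J with an F1 of JF1 and C57BL6/J. A single library was made per mark, genotype and cell type, so no difference below has a replicate check.

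X inactivation silences 1 X in each female cell, with H3K27me3 laid down by Polycomb complexes across most of that chromosome. H3K9me3, a mark of constitutive heterochromatin, lies on parts of the inactive X in blocks. The genes described here act in blood and immune cells, several of them cause immunodeficiency or blood disease when mutated, and fibroblasts and epiblast cells are not cells in which they are known for their function. Transcription was not measured in these libraries, and autosomal genes, such as Smchd1 and the usual markers of the labelled cell types, were not analysed here.

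Values are the deposited log2 enrichment of a gene, read as the ratio of ChIP to matched input, so that gene length cancels. Each library also carries a constant of unknown size, so 0 need not be the input level, and the constant enters every count of values above a level and every difference between libraries. Changes are the MD1 minus the WT log2 value, and a change was called at 2-fold or more. The 95% intervals come from whole-number read pairs recovered from the values and cover counting error only. Summed over genes, the ChIP pairs came to between 33117 (H3K9me3 in MD1 EpiSCs) and 1804080 (H3K27me3 in the same cells), and the median input pair per gene lay between 78 and 129.5. Percentiles give the share of genes in a library at or below a gene's value and do not depend on the constant.

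The genes lie in separate parts of the X (mm9, counted from 1). Foxp3 (7156802 to 7172369, plus strand), Gata1 (7536386 to 7545036, minus strand) and Was (7658592 to 7667617, minus strand) share a stretch of 510816 bases with 26 measured genes, themselves included. Cybb (9012380 to 9046450, minus strand) is the next member along, followed by Cfp (20502661 to 20508650, minus strand), Sh2d1a (39855785 to 39875252, plus strand) and Cd40lg (54465320 to 54477219, plus strand). Il2rg (98459726 to 98463545, minus strand) and Cxcr3 (98926875 to 98929486, minus strand) are 463329 bases apart, and Btk (131076880 to 131117679, minus strand) is the last. The members are short, with a median length of 10463 bases against 20602 over all 698 genes. Cxcr3 (2612 bases) and Il2rg (3820 bases) are the shortest, and their values rest on few reads.

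The promoter windows of these genes hold few CpG dinucleotides. Windows of 300 bases, from 250 before to 50 after the start of the gene, were taken from RefSeq (build GRCm38.p6) for 8 of the 10 members, with 9 windows since Foxp3 has 2. They held between 1 and 8 CpGs, with a median of 4, and 7 of the 9 held at most 5. In the 661 windows of the 528 other measured X-linked genes that matched, the median was 11 and 29.3% held at most 5. GATA-type motifs, searched as AGATAA and TGATAA on both strands, were found in 3 of the 9 windows, the pair at Foxp3 and the one at Cybb, against 16.7% of all 670 windows. The windows below belong to Cfp and Was, the members with the largest H3K9me3 losses in EpiSCs, to Cxcr3, the member whose H3K9me3 was not lower there, and to Cybb, which has the fewest CpGs. Capitals mark CpGs and matches to the GATA-type motifs.
Was, minus strand, chrX:8090442-8090741: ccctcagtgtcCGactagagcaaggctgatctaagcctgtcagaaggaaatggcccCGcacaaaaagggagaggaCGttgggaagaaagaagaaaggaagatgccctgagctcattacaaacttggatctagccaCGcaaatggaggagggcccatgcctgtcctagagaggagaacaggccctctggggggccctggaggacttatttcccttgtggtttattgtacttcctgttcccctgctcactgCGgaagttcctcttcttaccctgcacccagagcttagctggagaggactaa
Cfp, minus strand, chrX:20931506-20931805: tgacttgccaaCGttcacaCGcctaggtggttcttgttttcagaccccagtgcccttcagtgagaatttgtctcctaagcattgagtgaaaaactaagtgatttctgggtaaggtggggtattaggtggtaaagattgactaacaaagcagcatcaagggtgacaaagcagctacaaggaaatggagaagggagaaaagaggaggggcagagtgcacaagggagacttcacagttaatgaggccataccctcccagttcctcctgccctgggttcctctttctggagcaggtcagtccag
Cxcr3, minus strand, chrX:101734098-101734397: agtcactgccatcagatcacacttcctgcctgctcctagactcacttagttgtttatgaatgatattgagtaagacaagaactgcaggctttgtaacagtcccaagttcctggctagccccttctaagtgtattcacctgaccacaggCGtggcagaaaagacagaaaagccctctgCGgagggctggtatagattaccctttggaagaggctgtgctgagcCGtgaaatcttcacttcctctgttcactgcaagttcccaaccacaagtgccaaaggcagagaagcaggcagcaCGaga
Cybb, minus strand, chrX:9469275-9469574: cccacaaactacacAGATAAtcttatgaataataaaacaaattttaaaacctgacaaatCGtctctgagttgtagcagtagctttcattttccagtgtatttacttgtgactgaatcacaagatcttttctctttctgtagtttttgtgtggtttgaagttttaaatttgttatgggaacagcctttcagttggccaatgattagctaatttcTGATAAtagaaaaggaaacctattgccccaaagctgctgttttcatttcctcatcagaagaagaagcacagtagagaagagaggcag
Was holds 5 CpGs, Cfp 2, Cxcr3 4 and Cybb 1, and of these windows the one of Cybb alone holds the searched motifs, with 2 matches. These are descriptions of the sequence, and no value of the table is specific to the promoter.

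In WT EpiSCs most of the blood and immune genes had a high H3K9me3 value, and in MD1 cells of both kinds their values were low, as over the whole table. In WT EpiSCs 8 of the 10 had a deposited H3K9me3 value of at least 1, against 64% of all 719 genes, with a member median of 3.18 against 2.03. In WT MEFs 4 were (Foxp3, Gata1, Was and Cfp), against 20.3% of 747 genes. In MD1 EpiSCs and in MD1 MEFs 0 were, against 5.3% and 2.92% of genes. All 10 values were below 0 in both MD1 libraries, as were 87.4% of genes in EpiSCs and 88.9% in MEFs, where the library medians were −1.27 and −1.26. For H3K27me3 all 10 had a value of at least 1 in WT EpiSCs (87.1% of genes) and in MD1 EpiSCs (96.1%). In MEFs 7 were in WT (80.9% of genes) and 9 in MD1 (75.1%), and 1 member, Was, was below 0 in WT, against 6.69% of genes.

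**Figure D1:**
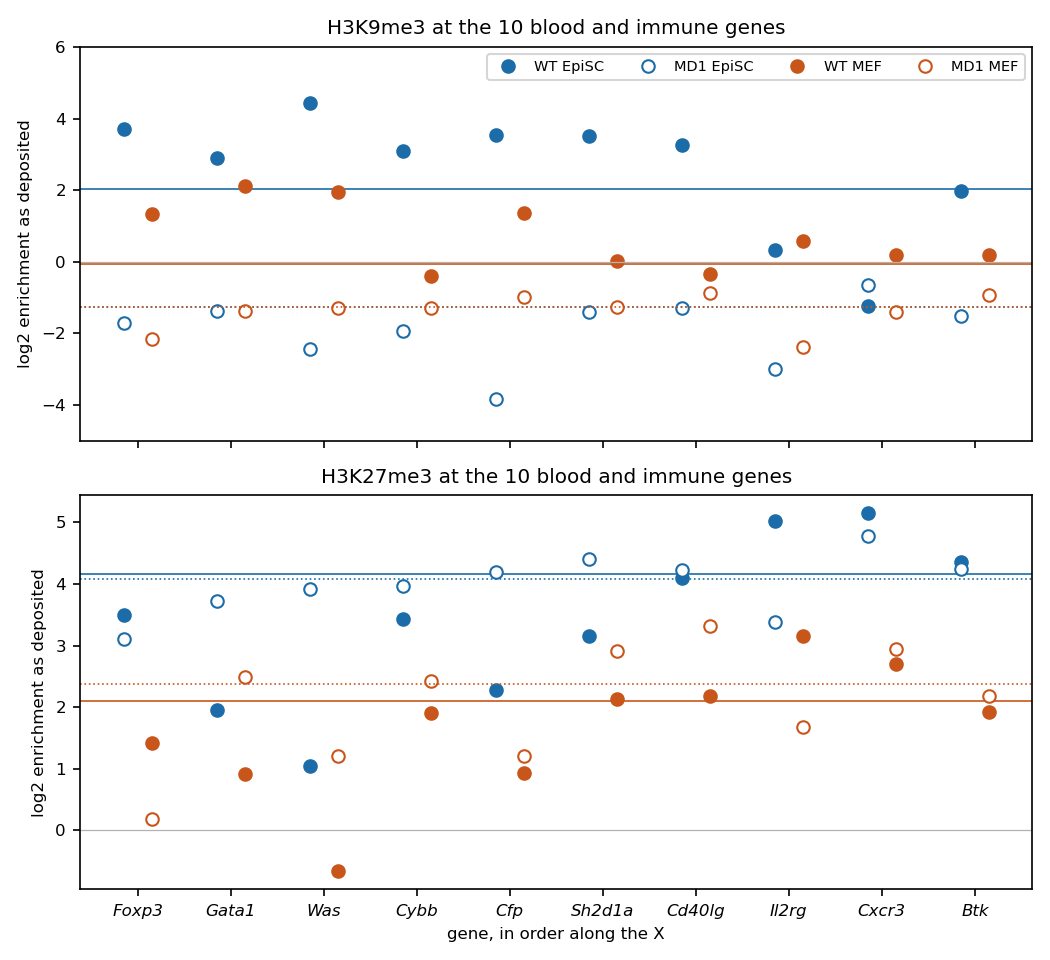
Log2 enrichment of H3K9me3 (top) and H3K27me3 (bottom) at each gene, ordered along the X, with filled points for WT and open points for MD1, in EpiSCs (blue) and MEFs (orange), 1 library each. Solid (WT) and dotted (MD1) lines are the medians of all genes in a library. In H3K9me3 the WT EpiSC points lie between −1.24 and 4.44 and every MD1 point lies below 0, while in H3K27me3 Was is the one gene with a value below 0, in WT MEFs.

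H3K9me3 was lower in MD1 EpiSCs at 9 of the 10 genes by at least 2-fold, and higher by 2-fold at 0, where 82.9% of 708 genes were lower and 1.13% higher. The median change was −4.72 over the members and −2.98 over all genes. The counts in MEFs were 8 lower and 0 higher by that threshold, against 51.3% and 0.677% of 739 genes, with medians of −1.96 and −1.02. Because most of the X was lower, each library was also centred on its median gene. This moved all H3K9me3 changes by 3.30 in EpiSCs and by 1.17 in MEFs. Relative to the median gene, 6 members were lower in EpiSCs (Foxp3, Was, Cybb, Cfp, Sh2d1a and Cd40lg) and 1 was higher (Cxcr3), against 22.9% and 38.4% of all genes. In MEFs 5 were lower on that scale (Foxp3, Gata1, Was, Cfp and Il2rg) and 0 higher, against 22.3% and 11.5%.

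H3K27me3 split the same genes. In EpiSCs 4 were at least 2-fold higher in MD1 (Gata1, Was, Cfp and Sh2d1a) and 1 was lower (Il2rg), against 22.7% higher and 11.3% lower among all genes. In MEFs 3 were higher (Gata1, Was and Cd40lg) and 2 lower (Foxp3 and Il2rg), against 22.3% and 24%. The member medians were 0.34 in EpiSCs and 0.39 in MEFs, against −0.069 and 0.34 over all genes. Centring moved H3K27me3 changes by 0.099 in EpiSCs and by −0.28 in MEFs. In MEFs it left 2 members higher (Gata1 and Was) and 2 lower, against 16% and 26.1% of genes, and it left the EpiSC counts at 4 and 1, against 24.9% and 9.89%. Each H3K27me3 count as deposited lay within 2 genes of what the share of all genes gives for 10, as did the H3K9me3 counts in EpiSCs, so these shares are near the background.

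**Figure D2:**
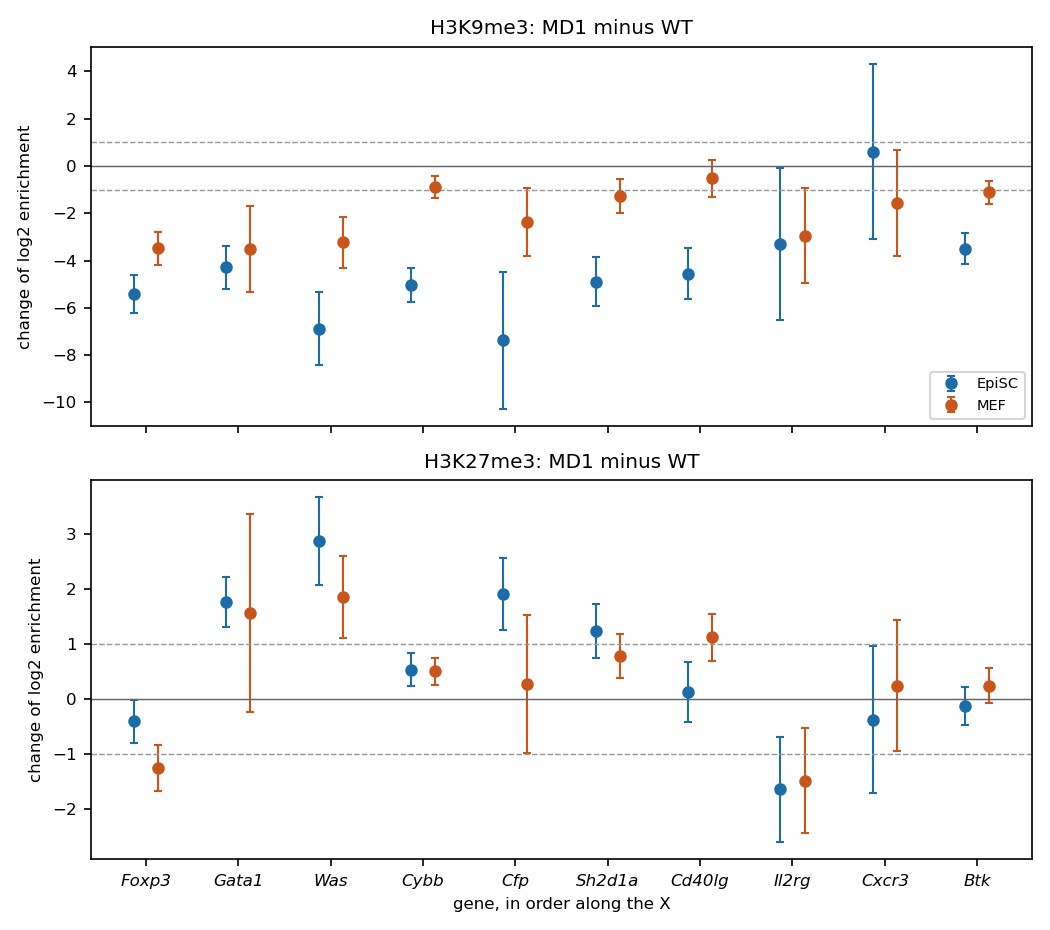
Change of log2 enrichment, MD1 minus WT, of H3K9me3 (top) and H3K27me3 (bottom) at each gene in EpiSCs (blue) and MEFs (orange). Bars are 95% counting intervals, with no replicates, and dashed lines mark 2-fold. H3K9me3 changes run from −7.37 at Cfp to 0.60 at Cxcr3 in EpiSCs, and H3K27me3 changes from −1.64 at Il2rg to 2.87 at Was.

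Foxp3 encodes the transcription factor that defines regulatory T cells. Its H3K9me3 was 3.71 in WT and −1.71 in MD1 EpiSCs, and 1.32 in WT and −2.16 in MD1 MEFs. These are the 86.8 percentile of the library in WT EpiSCs and the 86.2 percentile in WT MEFs, against 24.2 and 20.03 in MD1. The changes were −5.43 (−6.23 to −4.62) in EpiSCs and −3.48 (−4.18 to −2.78) in MEFs. Foxp3 had high H3K9me3 in both WT cell types and, in MD1, values below most of the X. Its H3K27me3 was 3.50 in WT and 3.10 in MD1 EpiSCs, a change of −0.40 (−0.79 to −0.0059). The MEF values were 1.42 and 0.18, a change of −1.24 (−1.66 to −0.83). Foxp3 was therefore lower in both marks in MD1 MEFs, which held for 18.8% of all genes. It had the lowest H3K27me3 of the members in both MD1 libraries.

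Gata1 encodes the transcription factor that drives red cell and platelet lineages. Its H3K9me3 was 2.90 in WT and −1.38 in MD1 EpiSCs, a change of −4.28 (−5.19 to −3.38). MEFs had 2.13 in WT, the highest of the members, and −1.37 in MD1, a change of −3.50 (−5.33 to −1.68). H3K27me3 went the other way, with 1.95 in WT and 3.72 in MD1 EpiSCs, a change of 1.77 (1.31 to 2.23). The MEF values of 0.92 and 2.48 gave a change of 1.57, whose interval of −0.23 to 3.37 included 0. The interval is wide because the smallest whole-number pairs in WT MEFs were 9 for H3K9me3, 7 for H3K27me3 and 4 for input, and the real counts may be multiples of them.

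Was encodes the Wiskott-Aldrich syndrome protein, which links surface signals to actin in blood cells. Its H3K9me3 was 4.44 in WT EpiSCs, the seventh highest of 719 genes, and −2.44 in MD1, where its ChIP pair was 4. MEFs had 1.94 and −1.30. The changes were −6.88 (−8.44 to −5.33) and −3.24 (−4.30 to −2.17). Its H3K27me3 was the lowest of the members in both WT cell types, with 1.05 in EpiSCs and −0.66 in MEFs, the 13.2 and 3.61 percentiles. In MD1 its H3K27me3 was 3.93 in EpiSCs and 1.20 in MEFs. The changes of 2.87 (2.08 to 3.67) and 1.86 (1.11 to 2.61) were the largest H3K27me3 gains of the 10 genes in each cell type.

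Btk encodes Bruton's tyrosine kinase of the B cell receptor pathway. It sat close to the library median in both marks. H3K9me3 was 1.99 in WT and −1.51 in MD1 EpiSCs, a change of −3.49 (−4.17 to −2.82), and 0.18 and −0.94 in MEFs, a change of −1.12 (−1.62 to −0.62). Relative to the median gene the H3K9me3 change of Btk was −0.19 in EpiSCs and 0.046 in MEFs, both near 0, so that Btk moved with the median gene. H3K27me3 was 4.36 and 4.24 in EpiSCs, and 1.93 and 2.17 in MEFs, and both changes had intervals that included 0 (−0.46 to 0.23 and −0.071 to 0.57).

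Sh2d1a encodes SAP, an adaptor of SLAM-family receptors in T and natural killer cells. H3K9me3 was 3.50 in WT and −1.39 in MD1 EpiSCs, a change of −4.89 (−5.92 to −3.87). MEFs had 0.015 and −1.25, a change of −1.27 (−1.97 to −0.56), which is −0.10 relative to the median gene. H3K27me3 was higher in MD1 EpiSCs by 1.24 (0.75 to 1.74), from 3.16 to 4.40, and its percentile went from 29.1 to 83.2. The MEF values were 2.13 and 2.92, a change of 0.79 (0.39 to 1.18).

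Il2rg encodes the common gamma chain shared by several interleukin receptors. It was the one member with both marks at least 2-fold lower in EpiSCs, which held for 7.77% of all genes, and it was lower in both in MEFs as well. H3K27me3 was 5.01 in WT and 3.38 in MD1 EpiSCs, a change of −1.64 (−2.59 to −0.69). MEFs had 3.15 and 1.67, a change of −1.48 (−2.43 to −0.52). Its percentile for H3K27me3 went from 94.9 to 21.6 in EpiSCs and from 96.9 to 35.3 in MEFs. H3K9me3 was 0.32 and −2.99 in EpiSCs on ChIP pairs of 5 and 1, a change of −3.31 (−6.53 to −0.081), and −0.0048 relative to the median gene. In MEFs H3K9me3 was 0.57 and −2.39, a change of −2.96 (−4.96 to −0.95).

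Cxcr3 encodes a chemokine receptor of activated T cells. It had the highest H3K27me3 of the members in both EpiSC libraries, 5.15 in WT and 4.78 in MD1, a change of −0.37 (−1.71 to 0.97). The MEF values were 2.69 and 2.94, a change of 0.25 (−0.94 to 1.43). H3K9me3 in EpiSCs was −1.24 in WT, the 5.01 percentile, and −0.63 in MD1, on ChIP pairs of 1 and 2. That change of 0.60 had an interval of −3.10 to 4.30, so neither a loss nor a gain was detectable at this depth. In MEFs H3K9me3 was 0.18 and −1.39, a change of −1.57 whose interval of −3.81 to 0.67 included 0.

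Cd40lg encodes the ligand through which helper T cells activate B cells. H3K9me3 was 3.26 in WT and −1.29 in MD1 EpiSCs, a change of −4.55 (−5.62 to −3.48). MEFs had −0.34 and −0.86, and the change of −0.52 (−1.30 to 0.27) was under 2-fold and came to 0.65 relative to the median gene. H3K27me3 was 4.09 and 4.23 in EpiSCs, a change of 0.14 (−0.41 to 0.69). In MEFs it was 2.19 in WT and 3.31 in MD1, the highest of the members in that library, a change of 1.13 (0.70 to 1.56). Cd40lg was thus called in H3K9me3 in EpiSCs and in H3K27me3 in MEFs.

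Cfp encodes properdin, which stabilises the alternative complement pathway. H3K9me3 was 3.54 in WT and −3.82 in MD1 EpiSCs, the latter on a ChIP pair of 1, a change of −7.37 (−10.27 to −4.47). In MEFs it was 1.37 and −0.99, a change of −2.36 (−3.80 to −0.92). H3K27me3 was 2.28 in WT and 4.19 in MD1 EpiSCs, a change of 1.92 (1.26 to 2.58), and its percentile went from 19.3 to 60.1. In MEFs it was 0.94 and 1.22, a change of 0.28 (−0.97 to 1.53).

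Cybb encodes the catalytic subunit of the phagocyte NADPH oxidase. H3K9me3 was 3.10 in WT and −1.94 in MD1 EpiSCs, a change of −5.04 (−5.76 to −4.32). In MEFs it was −0.40 and −1.30, and the change of −0.89 (−1.36 to −0.43) was under 2-fold and came to 0.27 relative to the median gene. H3K27me3 was higher in MD1 by less than 2-fold in both cell types. It was 3.43 and 3.96 in EpiSCs, a change of 0.54 (0.23 to 0.84), and 1.91 and 2.42 in MEFs, a change of 0.51 (0.26 to 0.76).

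The marks can be read together at each gene. In EpiSCs 4 of the 10 had H3K9me3 at least 2-fold lower with H3K27me3 at least 2-fold higher (Gata1, Was, Cfp and Sh2d1a), a pattern found in 22.5% of genes. In another 4 (Foxp3, Cybb, Cd40lg and Btk) H3K9me3 was lower and H3K27me3 moved by less than 2-fold, as in 52.7% of genes. In MEFs Gata1 and Was had lower H3K9me3 with higher H3K27me3, against 10.6% of genes, and Foxp3 and Il2rg were lower in both. Another 4 (Cfp, Sh2d1a, Cxcr3 and Btk) had lower H3K9me3 alone, against 21.9%. Both marks of a cell type and genotype share 1 input library.

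**Figure D3:**
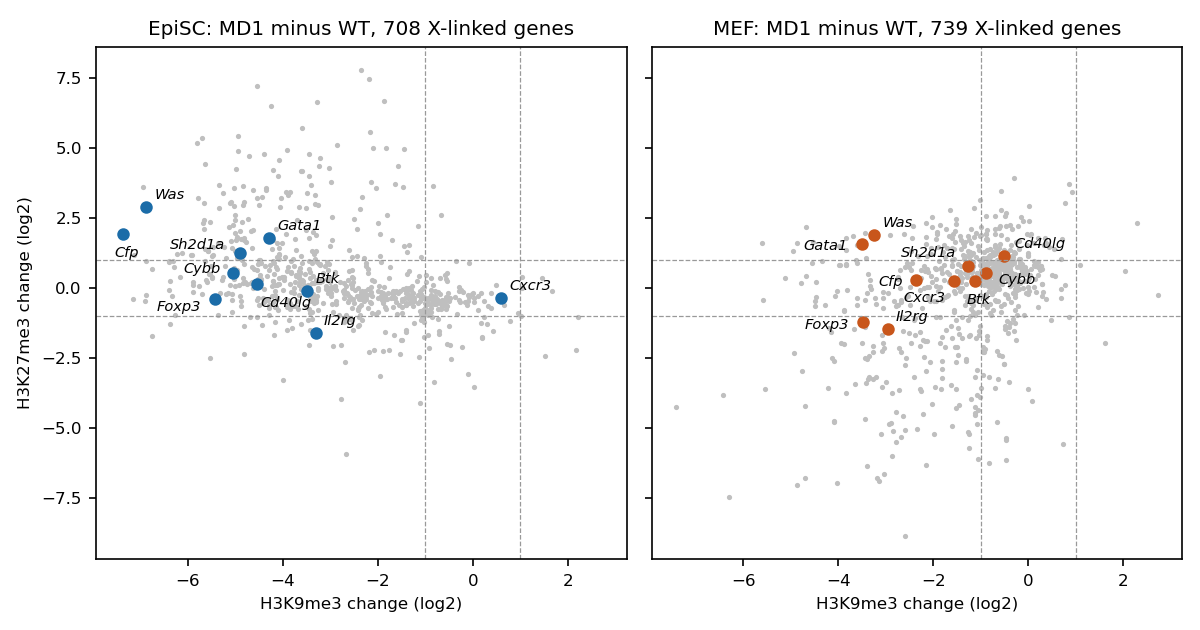
Change of H3K27me3 against change of H3K9me3, MD1 minus WT on the log2 scale, in EpiSCs (left, 708 genes) and MEFs (right, 739 genes), with the blood and immune genes coloured and named and all other X-linked genes in grey. Dashed lines mark 2-fold. Was and Cfp lie at the far left in EpiSCs with H3K27me3 gains of 2.87 and 1.92, and Il2rg is the one member in the lower left there.

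The cell types differed in how H3K9me3 was spread over these genes in WT. By percentile, Cybb was at 69.4 in EpiSCs and 36.3 in MEFs, Cd40lg at 73.0 and 39.1, and Sh2d1a at 79.7 and 53.3. In contrast Gata1 was at 65.9 and 97.1, and Foxp3 and Was were high in both, Was at 99.2 and 93.7. Il2rg was at 27.1 and 72.2 and Cxcr3 at 5.01 and 61.7, both on few reads. The H3K9me3 change in MD1 was less negative in MEFs at 9 of the 10 genes, as at 83.1% of the 698 genes, over which the median difference (the MEF minus the EpiSC change) was 1.57. WT levels also differed, with a median WT MEF minus WT EpiSC value of −1.90 over those genes. As deposited, the counting interval of the difference between the changes excluded 0 at 7 genes. This difference was largest at Cfp, 5.01 (1.77 to 8.24), on a ChIP pair of 1 in MD1 EpiSCs. Next were Cybb, 4.15 (3.29 to 5.004), and Cd40lg, 4.03 (2.71 to 5.36). At Gata1 it was 0.78 (−1.25 to 2.82), and at Il2rg 0.35 (−3.45 to 4.15). Centring moved H3K9me3 changes by 3.30 in EpiSCs and 1.17 in MEFs, which makes each difference lower. Relative to the median gene, the EpiSC and MEF changes were −4.06 and −1.20 at Cfp. They were −1.74 and 0.27 at Cybb, and −1.25 and 0.65 at Cd40lg. At Foxp3, which was among those 7 genes, they were −2.12 and −2.32, so that the MEF change became the more negative. The same held at Gata1 (−0.98 and −2.34) and Il2rg (−0.0048 and −1.79). As deposited, H3K27me3 changes differed beyond counting error at Foxp3, Cfp and Cd40lg. The difference was −0.85 (−1.42 to −0.28) at Foxp3, −1.64 (−3.05 to −0.23) at Cfp and 0.99 (0.29 to 1.68) at Cd40lg. Relative to the median gene, the EpiSC and MEF changes were −0.30 and −1.52 at Foxp3. They were 2.02 and 0.00086 at Cfp, and 0.24 and 0.85 at Cd40lg. For neither mark was an interval of the difference computed on that scale, and which genes exclude 0 depends on the scale. The share of all genes whose interval excludes 0 was not computed for either mark. No interaction could be tested with 1 library per group.

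Each gene was set beside its surroundings, the 5 measured genes on each side that are not members. In WT EpiSCs H3K9me3 was close to the median of these neighbours at Cybb (3.10, neighbour median 3.09), Btk (1.99 and 2.12) and Foxp3 (3.71 and 3.46). The neighbours themselves ranged from 1.14 to 4.49 at Cybb, 0.56 to 2.42 at Btk and 3.05 to 4.03 at Foxp3. Was, at 4.44, stood above all 10 of its neighbours (median 3.83), and Gata1, at 2.90, below all 10 (median 3.78). The H3K9me3 change in MD1 EpiSCs was more negative than that of all 10 neighbours at Was, Cybb, Cfp and Il2rg. At each of them the lowest neighbour (−5.92, −4.65, −5.69 and −2.53) lay within the member's counting interval. The share of all genes that lie beyond all 10 of their neighbours was not computed. At Cfp it was −7.37 against a neighbour median of −4.98, and at Il2rg −3.31 against −0.97, each on an MD1 ChIP pair of 1.

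In MD1 MEFs Cxcr3 kept an H3K27me3 value near that of WT beside neighbours with much lower values than in WT. Of the 90 distinct neighbours of all members, 30 (33.3%) were at least 2-fold lower in H3K27me3 there and 16 higher. The 2 of 10 members that were lower are near the 24% of all genes. At Cxcr3 the change was 0.25, above all 10 neighbours, of which 8 were at least 2-fold lower, with a median of −5.27. Its MD1 value of 2.94 stood beside a neighbour median of −2.89, where in WT the values had been 2.69 and 2.58. With 10 genes on each side the neighbour median change at Cxcr3 was −1.14. Was, at 1.86, was level with the highest of its neighbours, Glod5 (1.86, neighbour median 0.28). Btk had 0.25 beside −1.11, with 5 of the 10 neighbours lower, Cfp had 0.28 beside −1.04 with 5 lower, and Gata1 had 1.57 beside −0.22 with 3 lower. With 10 genes on each side the medians were −0.27 at Btk, 0.059 at Cfp and −0.51 at Gata1. Foxp3, with −1.24, was below its neighbours' median of 0.29, with 1 of the 10 called lower and 3 higher. The lower one was Ccdc22 (−1.46), whose span overlaps the end of Foxp3. The nearest gene on the other side, Ppp1r3fos, had −0.63. Il2rg lay among its neighbours, with −1.48 beside −1.08. Of its 10 neighbours 6 were called lower and 4 lay below Il2rg. With 10 genes on each side the median there was −1.31. In all, 6 of the 10 members were above their neighbours' median in MEFs (7 with 10 on each side) and 5 in EpiSCs (4 with 10 on each side). At the members called higher in H3K27me3 in MD1 EpiSCs, every neighbour also had a change above 0. The gains were 2.87 at Was (neighbour median 2.60), 1.77 at Gata1 (1.74) and 1.92 at Cfp (1.51). Sh2d1a, at 1.24, was above 1 of its 10 neighbours (median 3.35). Il2rg, the member called lower there, had −1.64 beside −1.18.

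**Figure D4:**
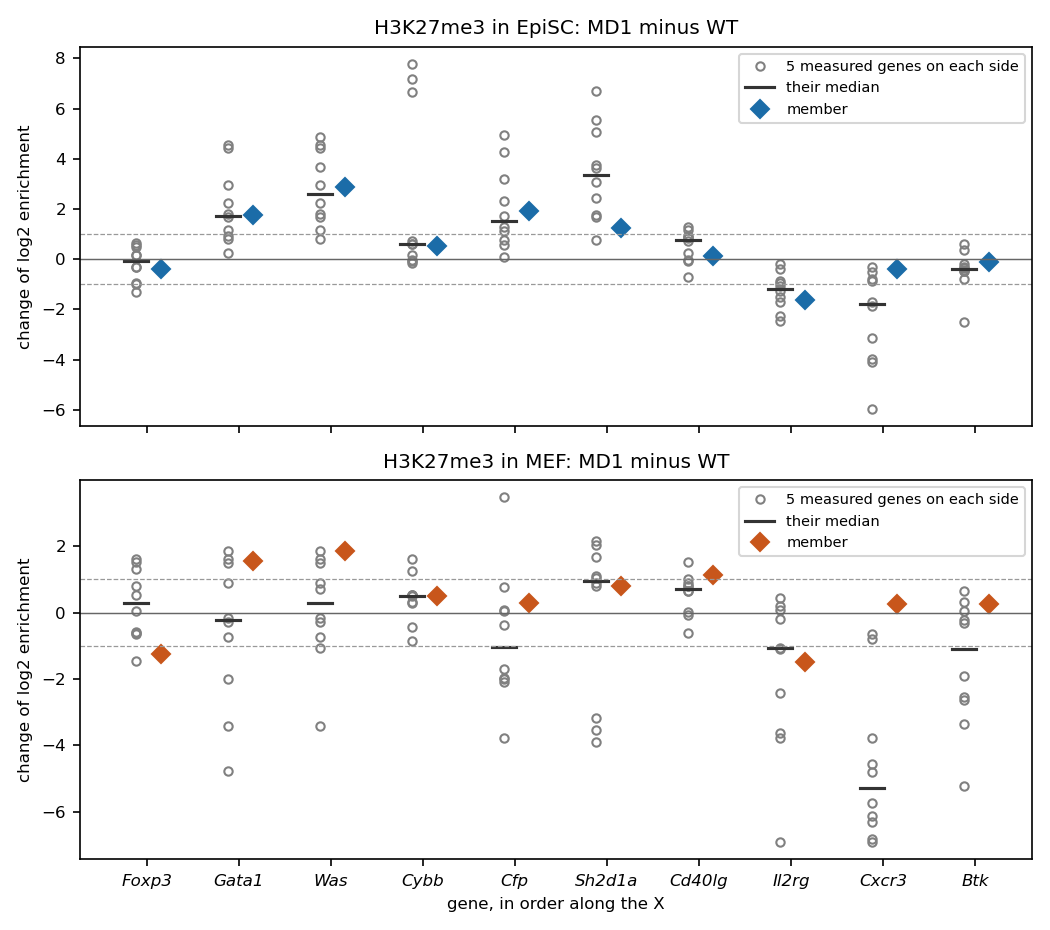
Change of H3K27me3, MD1 minus WT on the log2 scale, at each gene (diamonds) and at the 5 measured genes on each side of it (circles, with their median as a bar), in EpiSCs (top) and MEFs (bottom). Dashed lines mark 2-fold, and nearby members share some neighbours. In MEFs Cxcr3 lies at 0.25 above neighbours with a median of −5.27, and Was, at 1.86, lies level with the highest of its neighbours.

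Genes with the most similar set of 8 values were looked for among the 688 other genes measured throughout, by the root mean square difference over the 8 libraries. For Foxp3 this was Ccdc22 (0.36), whose span (7170935 to 7182546) overlaps the end of Foxp3, so that reads may count for both, for Gata1 it was Glod5 (0.46), also adjacent, and for Was it was Hdac6 (0.76), 0.151 Mb away. Cfp was also closest to Hdac6 (0.79), which lies in the stretch of Foxp3, Gata1 and Was. The closest to Cybb was Tmem255a (0.25), to Sh2d1a Slc25a43 (0.18), to Cd40lg Rhox10 (0.24), to Il2rg Magee1 (0.42) and to Cxcr3 Col4a6 (0.40). The median difference from a member to the other genes ran from 1.10 (Btk) to 2.20 (Was). Among the members themselves, Cybb and Sh2d1a were most alike (0.39), followed by Sh2d1a and Cd40lg (0.42), and Was and Cxcr3 least (2.97).

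Another 32 X-linked genes with known roles in blood and immunity were counted in 4 groups. Of 31 with EpiSC values, 28 were at least 2-fold lower in H3K9me3 in MD1 (90.3%, against 82.9% of all genes) and 0 higher, with a median of −3.97. In MEFs 18 of 32 were lower (56.3%, against 51.3%) and 0 higher, with a median of −1.07. H3K27me3 in EpiSCs was higher in 3 of the 31 and lower in 0, where 22.7% and 11.3% of all genes were. In MEFs it was lower in 12 of the 32 (37.5%) and higher in 3, where 24% and 22.3% of all genes were. Of the lower ones 6 were among the 9 genes of innate sensing and NF-kappa-B signalling, whose median H3K27me3 change was −1.98. Irak1 (−4.51) and Ikbkg (−4.39) were among those 6, and Tlr7 (0.57) was not. In lymphocyte signalling and receptors 3 of 13 were lower and 2 higher, with Sash3, Elf4 and Il13ra1 under 2-fold. In the myeloid and natural killer group the counts were 1 and 1 of 6, with Msn lower (−4.87) and Vsig4 under 2-fold. In the erythroid and haem group they were 2 and 0 of 4, with Alas2 and Xk under 2-fold.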

How the data were processed

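There are 8 ChIP and 4 input libraries, each the only one of its group. The authors deposited log2 enrichment values, 1 per gene and ChIP library, for X-linked genes. Reads were handled with cutadapt, BWA and SAMtools on build mm9, per the submitters' processing notes. Versions, the counting rule, any pseudocount, the scaling constant and the X of origin of the reads were not given in the sources used here. Library preparation used NEBNext Ultra II reagents, per the labels' protocols.

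The members and gene lists were chosen with earlier results of these data known. Since groups hold 1 library, samples could not be tested against each other and no p-value was computed. Members are set beside the share of all genes called at 2-fold or more. Whole-number pairs were recovered with 1 constant per library (relative tolerance 1e-12, denominators up to 30000). They matched 100% of values in each library, and the pairs of both marks were given a common input. They are the smallest pairs, so real counts may be multiples. Intervals use a normal approximation on the log scale. The procedure was tested on simulated Poisson counts drawn around the recovered pairs. These hold counting error only, so the test cannot show how far replicate libraries would differ. All members are named, and for each but Btk the most similar other gene; that of Btk is not reported here. Centring used the 698 genes with all values. The alternatives were centring, a pseudocount of 0.1 on the linear enrichment, a 3-fold call, input pairs of at least 20, leaving out the lowest 10% of genes, ranks, and 10 neighbours on each side. Starts in the table were read as counting from 0. Python 3.11.15, numpy 2.4.6, pandas 2.3.3 and scipy 1.17.1 were used.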

Additional observations from a re-analysis of the deposited data

Results flagged for a closer look

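At 2 genes the MD1 minus WT change, as deposited, had opposite signs in the cell types. This difference was not tested since each group holds 1 library. Cxcr3 had an H3K9me3 change of 0.60 in EpiSCs and −1.57 in MEFs, a difference of −2.17 (counting interval −6.49 to 2.15), and an H3K27me3 change of −0.37 and 0.25, a difference of 0.62 (−1.17 to 2.40). Btk had an H3K27me3 change of −0.12 in EpiSCs and 0.25 in MEFs, a difference of 0.36 (−0.10 to 0.83). All these intervals included 0. The signs also depend on the library constants. Relative to the median gene, the H3K27me3 changes were −0.27 and −0.028 at Cxcr3, and −0.018 and −0.029 at Btk, no longer opposite. On that scale H3K9me3 changes had opposite signs at Cybb (−1.74 in EpiSCs, 0.27 in MEFs), Cd40lg (−1.25 and 0.65) and Btk (−0.19 and 0.046). At Cxcr3 they stayed opposite (3.91 and −0.40).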

How the results depend on the processing

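Centring each library on its median gene gave a member median of −1.42 for H3K9me3 in EpiSCs and −0.80 in MEFs, with 1 member higher in EpiSCs and 5 lower in MEFs, and it made the H3K9me3 change in MEFs positive at Btk (0.046), Cybb (0.27) and Cd40lg (0.65), the last 2 not called as deposited. Of the 40 changes of single genes, centring reversed 1 called change, that of H3K9me3 at Btk in MEFs. It moved 15 others beyond their counting interval, those of Cybb and Cd40lg among them. The remaining 24 stayed within it, as did all 40 with a pseudocount of 0.1. A 3-fold call left 5 members lower in H3K9me3 in MEFs, and for H3K27me3 in MEFs 0 lower and 1 higher. Input pairs of at least 20 in both genotypes kept 8 members in EpiSCs and 6 in MEFs, as fewer genes passed. That left 4 lower in H3K9me3 in MEFs (median −1.19, against −1.96 for all 10 members), 0 lower in H3K27me3 in EpiSCs (median 0.89) and 1 lower in MEFs. The other counts under these settings and without the lowest 10% of genes stayed within 1.5 times the main count, and the other medians moved by less than the median half-width of the members' counting intervals. By percentile within the library, the median member moved by −31.1 points in EpiSCs and −21.2 in MEFs for H3K9me3, and by 10.1 and 10.5 for H3K27me3. No paired analysis was possible because each group holds 1 library. Depth limits Cxcr3 and Il2rg, with input pairs between 9 and 30. In WT MEFs Gata1 and Cfp had input pairs of 4 and 9, against 109 and 72 in MD1 MEFs. These are the smallest pairs and the real counts may be multiples. The wide intervals of Gata1 and Cfp in MEFs, and their loss at input pairs of at least 20, therefore need not reflect low depth.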
